A study of Caenorhabditis elegans with 2 samples.

Results

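The regions described here are the 925 regions of the pooled list, out of 30000 in all, whose summit lay from position 4800000 to 6600000 of chromosome IV on ce11 (WBcel235). This interval holds the left-hand clusters of piRNA genes, and the rule used position alone, with no measured value. The data are ChIP-seq against SNPC-4 tagged with enhanced green fluorescent protein (eGFP-snpc-4) in whole *Caenorhabditis elegans* at the L3 larval stage, and the antibody is labelled snpc-4. There was 1 group with 2 biological replicates. Both were strain OP179, unc-119(ed3) III; wgIs179, in which the tagged gene is a transgene insertion, with males and females pooled and the age given as unknown. No second genotype, stage or treatment was present, so the regions were compared with other positions, with other regions of the same lists and between replicates. Sequencing depth is unknown, as no reads are counted in the lists, and a control alignment was not analysed. They came from whole animals, so a tissue in which a region was bound cannot be read from them.

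SNPC-4 is the DNA-binding subunit of SNAPc, the complex that starts transcription of small nuclear RNA (snRNA) and spliced leader RNA genes from an element a short way upstream of the gene. In *C. elegans* it also acts in the germline, with PRDE-1 and TOFU factors, on piRNA genes, each of which makes a 21U-RNA, the worm's piRNA, that guides the Argonaute PRG-1. Many 21U-RNA genes lie in clusters on chromosome IV and carry an upstream core word, CTGTTTCA, which is the hallmark of their small promoters.

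The strongest members stood at snoRNA, snRNA and spliced leader genes, and their promoters are shown first because they carry the strongest signals in the interval. Each sequence runs on the gene's own strand from 100 bp before the annotated 5′ end to 20 bp into the gene, on WBcel235. Capitals mark the best match to a 22-bp element that was fitted to 46 snRNA and spliced leader genes outside the interval, each with a thresholded peak.
T08B6.64 (chrIV:4880831-4880950, minus strand): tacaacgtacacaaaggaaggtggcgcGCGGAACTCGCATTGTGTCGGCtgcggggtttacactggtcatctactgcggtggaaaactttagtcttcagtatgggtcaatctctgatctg
Y9C9A.111 (chrIV:4930854-4930973, plus strand): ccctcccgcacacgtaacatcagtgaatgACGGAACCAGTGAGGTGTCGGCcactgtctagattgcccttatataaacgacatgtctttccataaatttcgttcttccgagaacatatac
sls-2.13 (chrIV:5063512-5063631, minus strand): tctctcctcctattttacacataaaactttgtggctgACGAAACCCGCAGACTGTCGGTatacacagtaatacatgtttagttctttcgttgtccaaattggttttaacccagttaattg
sls-2.17 (chrIV:5317349-5317468, minus strand): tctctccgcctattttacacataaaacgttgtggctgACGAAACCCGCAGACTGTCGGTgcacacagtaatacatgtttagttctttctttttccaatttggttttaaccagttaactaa
M03D4.78 (chrIV:6117857-6117976, minus strand): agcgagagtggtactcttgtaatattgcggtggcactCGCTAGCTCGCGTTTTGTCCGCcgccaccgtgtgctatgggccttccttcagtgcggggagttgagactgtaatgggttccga
The capitals began 73, 71, 63, 63 and 63 bp before the 5′ ends, in the order shown, and all 5 passed the score that 1% of genome tiles reached. Both *sls-2* promoters carried the same 22 bases, and genes of that family share sequence with the fitted genes.

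The next set shows piRNA genes of the interval that carry the core word. They are the genes at the strongest 4 of 128 members that had a piRNA gene with the core word within 100 bp of the summit. Each runs from 60 bp before the 5′ end to the last of the 21 bases of the annotated piRNA gene, and capitals mark the core word and then the piRNA itself.
21ur-12780 (chrIV:5721803-5721883, plus strand): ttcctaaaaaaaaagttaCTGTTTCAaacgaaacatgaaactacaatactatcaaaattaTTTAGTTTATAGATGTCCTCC
21ur-9403 (chrIV:6076598-6076678, minus strand): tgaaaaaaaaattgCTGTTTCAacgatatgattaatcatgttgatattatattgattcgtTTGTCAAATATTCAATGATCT
21ur-15608 (chrIV:5756692-5756772, minus strand): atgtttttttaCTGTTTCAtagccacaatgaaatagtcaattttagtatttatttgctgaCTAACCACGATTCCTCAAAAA
21ur-3660 (chrIV:5705152-5705232, minus strand): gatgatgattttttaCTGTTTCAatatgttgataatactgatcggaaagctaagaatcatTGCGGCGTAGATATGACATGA
The strongest member assigned to a piRNA gene is shown because it holds neither feature. The 200 bp at its summit, in an intron of *fkh-7*, had no core word and no match to the element. This window is printed on the plus strand of the chromosome and named for the nearest piRNA gene, which is on the minus strand. It does not contain that gene, whose 5′ end lies 178 bp from the summit.
21ur-3187 (chrIV:5607491-5607690, plus strand): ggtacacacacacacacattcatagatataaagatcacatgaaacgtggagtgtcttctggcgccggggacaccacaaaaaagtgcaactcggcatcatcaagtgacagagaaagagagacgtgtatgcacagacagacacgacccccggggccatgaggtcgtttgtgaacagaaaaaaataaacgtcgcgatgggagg

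The 925 members were densely spaced, and few of them were strong. They lay at 51.4 regions per 100000 bp, against 28.0 on the rest of chromosome IV outside both piRNA clusters and 27.5 on the other nuclear chromosomes. The larger right-hand cluster, from 13600001 to 17300000, had 78.3 per 100000 bp. Each replicate's own list gave the same order, with 42.7 per 100000 bp in replicate 1 and 44.7 in replicate 2, against 28.3 and 28.0 on the other chromosomes.

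The thresholded list, made by the irreproducible discovery rate (IDR) method, held 48 of the members. This was 5.19% (95% Clopper-Pearson interval 3.85 to 6.82) against 8.91% of all pooled regions. Per length, thresholded peaks were as dense in the interval (2.67 per 100000 bp) as on the rest of chromosome IV (2.57), in the right-hand cluster (2.59) and on the other chromosomes (2.65). The difference therefore lay in the 877 members below the threshold, at 48.7 per 100000 bp against 25.4 on the rest of the chromosome, a ratio of 1.92 (1.78 to 2.07). In the replicate lists, with as many strongest regions set aside, this ratio was 1.58 in replicate 1 and 1.62 in replicate 2.

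The deposited signal value, an arbitrary unit given by the authors on the scale of each list, had a median of 8.28 among members (quartiles 6.63 and 11.1, range 5.31 to 506). The median rank in the pooled list was 16623, and that of all nuclear regions was 15013.5. Of the members, 169 (18.3%) had a q-value of 0.05 or less, against 27.0% of all nuclear regions. Among the 500 strongest pooled regions 12 were members, and among the 100 strongest 1 was.

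The strongest signals belonged to small noncoding RNA genes. *T08B6.64*, a snoRNA gene, which makes an RNA that guides modification of other RNAs, had the strongest member (chrIV:4880771-4881042). It ranked 44 in the pooled list with a signal of 506, 45 in replicate 1 (signal 262) and 44 in replicate 2 (signal 256), and its summit was 66 bp upstream of the 5′ end (signed position -66). *Y9C9A.111*, an snRNA gene in an intron of *Y9C9A.8*, ranked 121 (signal 192), with ranks of 147 and 88 in replicates 1 and 2. Its summit was at -60, so both summits lay at the capitals of the sequences shown above.

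The spliced leader genes make the short leader RNA that is joined to the start of many worm mRNAs. *sls-2.13* (chrIV:5063520-5063699) ranked 124 with a signal of 189, and 124 and 110 in the replicates, with the summit at -61. *sls-2.17* (chrIV:5317343-5317510) ranked 129 with a signal of 187, and 129 and 131 in the replicates, with the summit at -34. The pair were close to each other in all 3 lists. *sls-2.19* was weaker, with 2 members at ranks 2286 (signal 32.7) and 3273 (24.8). Neither was overlapped in the replicate 1 list, and both met the same replicate 2 region, at rank 1613. *sls-2.12* had a member 387 bp downstream of its 5′ end, beyond the gene, at rank 14447 (signal 9.04). All 4 spliced leader genes of the interval had a member within 500 bp, and 3 had a thresholded one.

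The other snRNA genes were weaker than *Y9C9A.111*. *T08B6.62* ranked 3740 (signal 22.2; 7340 and 3279 in the replicates) with the summit at -27, and *Y17G9A.85* ranked 4402 (signal 19.5; 3359 and 16863) with the summit at -60. Both lay below the threshold and both had an element match at the summit. *Y17G9A.90* had a member 432 bp past its 5′ end at rank 24272 (signal 6.33). The snoRNA gene *M03D4.78* ranked 140 (signal 175; 150 and 138 in the replicates) with the summit at -89, and *T19E7.29* ranked 6937 (signal 14.2).

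Genes for tRNAs, which RNA polymerase III transcribes from promoters inside the gene, had 9 members, of which 4 were thresholded. The 9 made up 0.973% of members, against 1.39% of all nuclear regions. *B0350.t1* ranked 508 (signal 79.6; 320 and 508 in the replicates), with the summit at 17. *C43G2.t1* ranked 1117 (signal 52.6; 1131 and 767), with the summit at 72, and *C09B9.t1* ranked 1738 (signal 40.0; 3230 and 1442), with the summit at 76. The fourth thresholded member, at *Y4C6B.t1* (rank 2430, signal 31.3; 1930 and 2272), had its summit at -20. So 3 of these 4 summits lay downstream of the annotated 5′ end, and 0 of the 9 tRNA members had an element match.

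Protein-coding genes other than those of ribosomal proteins had 176 members, 19 of them thresholded. The strongest lay at *W03F8.4* (rank 169, signal 143; 152 and 213 in the replicates), followed by *hda-6*, a histone deacetylase (rank 217, signal 125; 262 and 200). *perm-3*, named for eggshell permeability, came next (rank 253, signal 114; 330 and 194). These 3 summits were upstream of the 5′ end, at -244, -26 and -98. Further genes among the 20 strongest members were *Y73B6BL.29* (signal 113), *sqd-1* (94.3), *nbet-1*, which encodes a SNARE protein (86.7), *F38A5.2* (81.3), *C49A9.10* (78.4), *eif-1.A*, a translation initiation factor (75.8), and *hrpf-2* (75.3). Each summit went only to the nearest 5′ end of its class. Those at *hda-6*, *perm-3*, *nbet-1*, *F38A5.2* and *hrpf-2* also lay within 500 bp of a protein-coding 5′ end on the other strand. The ribosomal protein gene *rps-25* had 2 members, at ranks 703 (signal 68.1) and 20226 (7.24). The first of them ranked 2656 in replicate 1 and 276 in replicate 2.

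Members of the remaining classes had signals of at most 76.6. The miRNA genes had 6 members (0.649%, against 0.390% of all nuclear regions) and 0 in the thresholded list. The strongest were at *mir-228* (rank 2948, signal 26.9, and rank 3487, signal 23.6) and *mir-8201* (rank 11462, signal 10.4). The summits at *mir-228* stood at -489 and 311. Each lay nearer to a piRNA 5′ end, at -166 from *21ur-9498* and at 22 from *21ur-6620*, and both had the core word. Noncoding RNA genes of no further class had 13 members (1.41%, against 6.54% of all nuclear regions). The 3 thresholded ones lay at *T19E7.22* (signal 54.8), *T19E7.26* (40.6) and *C02B10.72* (30.1). Pseudogenes had 4 members (0.432%, against 0.777% of all nuclear regions). These lay at *prg-2* (signal 14.8), annotated as a pseudogene and related to *prg-1*, *srz-28* (12.1), *H10D12.2* (10.5) and *Y17G9A.91* (6.62). No annotated 5′ end lay within 500 bp of 133 members (14.4%, against 56.4% of all nuclear regions), and 9 of the 133 were thresholded. The strongest of these was in an intron of *lag-1*, the DNA-binding factor of Notch signalling (chrIV:6097085-6097374, rank 545, signal 76.6; 781 and 482 in the replicates).

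Of the genes for SNAPc subunits and 21U-RNA transcription factors that were listed, *snpc-3.1*, a SNAPc subunit gene, was the one located in the interval. Its member, with the summit at -133, was weak, at rank 25308 (signal 6.13), was not overlapped in replicate 1 and ranked 15206 in replicate 2. At the ends of the interval, the last region outside the left end had a signal of 7.34 and the first inside, at *eif-1.A*, 75.8. The last inside the right end, at *F38A5.22*, had 6.62 and the first beyond, at *sup-36*, 9.66.

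**Figure D1:**
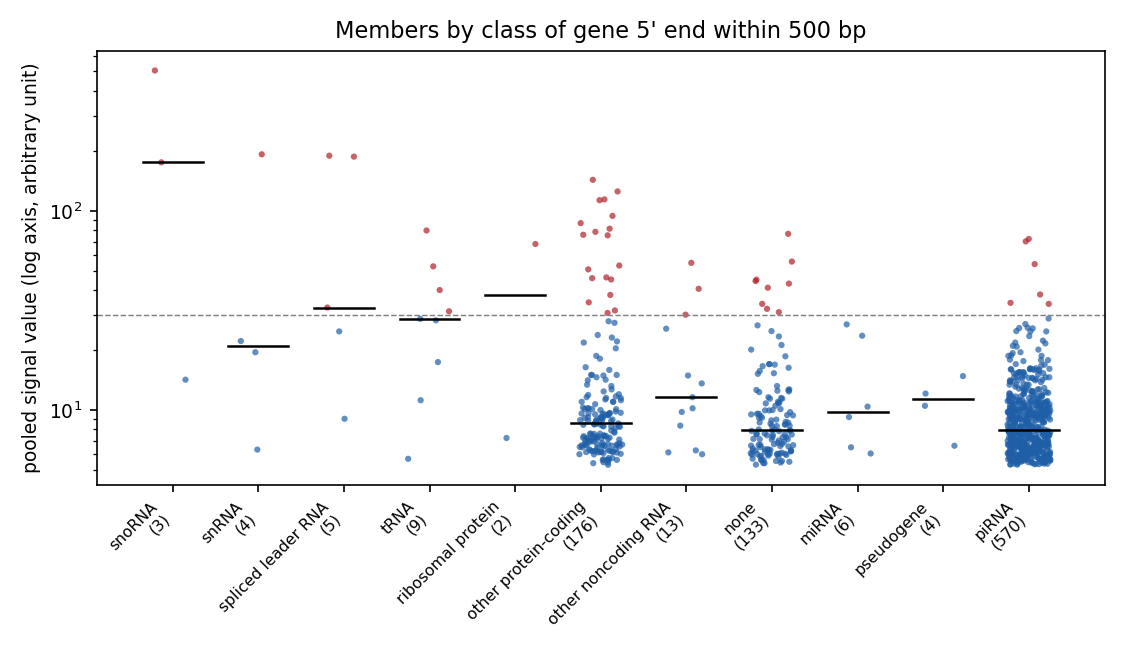
Pooled signal value (log axis, arbitrary unit) of the 925 members by the class of gene with a 5′ end within 500 bp, with the number of members below each class name; each dot is a member, red in the thresholded list and blue below it, and black bars are medians. The dashed line is the lowest signal of a thresholded member, 30.1; the snoRNA median was 175 and the piRNA median 7.97.

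By number, piRNA genes were the main class. With other small RNA classes and protein-coding genes assigned first, 570 members (61.6%) fell to piRNA genes, against 10.7% of all nuclear regions. Unclassified noncoding RNA genes and pseudogenes were assigned after them. The interval was chosen for its piRNA clusters, so a high share was built in. Of all its positions, 60.3% lay within 500 bp of a piRNA 5′ end. The share of positions under the same class order was not computed. Of the 570 members, 6 were thresholded. The median signal of the 570 was 7.97 and the highest 72.2. The interval held 2658 annotated piRNA genes of 14714 on chromosome IV, with 1284 on the plus and 1374 on the minus strand, among 3223 genes of which 355 were protein-coding. A T as the first base, the U of a 21U-RNA, was annotated at 2538 of them (95.5%).

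The 6 thresholded members assigned to piRNA genes did not lie at the promoter position. The strongest, at *21ur-3187* in *fkh-7* (rank 617, signal 72.2; 856 and 656 in the replicates), had its summit 178 bp downstream of the 5′ end. *21ur-6602* (rank 657, signal 70.2; 653 and 860), also in *fkh-7*, had it at -406, and *21ur-3329* (rank 1066, signal 54.0; 1443 and 1126) at 197. *21ur-8766* (signal 38.0), *21ur-13140* (34.5) and *21ur-10289* (34.1) had theirs at -247, -160 and 359. The next 4, below the threshold, were *21ur-15423* (signal 28.8), *21ur-11124* (27.0), *21ur-9930* (25.9) and *21ur-11026* (25.8), at 436, 166, 256 and 155. None of these 10 members had the core word in the 300 bp at its summit.

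As piRNA genes are dense in the interval, closeness to them was read against all of its positions. A piRNA 5′ end lay within 500 bp of 682 members (73.7%, interval 70.8 to 76.5). The same held for 60.3% of all positions of the interval and for 12.2% of all nuclear regions. Outside exons of protein-coding genes the share was 77.7% of members and 67.9% of positions. Of members in the thresholded list, 12 of 48 (25.0%) were that close, and their difference from other members was not tested.

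Read from the genes, 1525 of the 2658 piRNA genes (57.4%) had a member within 500 bp, and 21 (0.790%) had a thresholded one. Other classes of the interval also had members that close. They lay at 175 of 354 protein-coding genes other than those of ribosomal proteins, and at 84 of 143 unclassified noncoding RNA genes. The like share of all positions was not computed. For piRNA genes the share was 55.5% on the plus and 59.1% on the minus strand, with intervals of 52.8 to 58.3 and 56.4 to 61.7 that overlap. The core word stood 60 to 30 bp upstream of 1040 piRNA genes (39.1%), against 0.105% of 19971 protein-coding genes, and started 48 to 45 bp upstream in 935 of them. Of piRNA genes with the word 59.7% (56.7 to 62.7) had a member within 500 bp, and of those without it 55.9% (53.4 to 58.3). Neighbouring genes share members, and the intervals cover counting error only.

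Member summits were spread on both sides of piRNA 5′ ends, with a low maximum just upstream. Each 50-bp step from 600 bp upstream to 600 bp downstream held 76 to 115 summits, with a median of 91.5, and the highest step was 100 to 50 bp upstream. At piRNA genes with the core word the range was 28 to 54, with a median of 36.5 and the maximum in the same step, at 5.19 per 100 genes against a median of 3.51. Among the 682 close members, 345 lay upstream and 336 downstream of the nearest piRNA 5′ end, with a median position of -3. At snRNA and spliced leader genes of the whole genome, by contrast, the step 100 to 50 bp upstream held 39 summits at 130 genes, against a median of 2.0 per step. Per 100 piRNA genes the highest step held 4.33 summits and the median step 3.44.

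**Figure D2:**
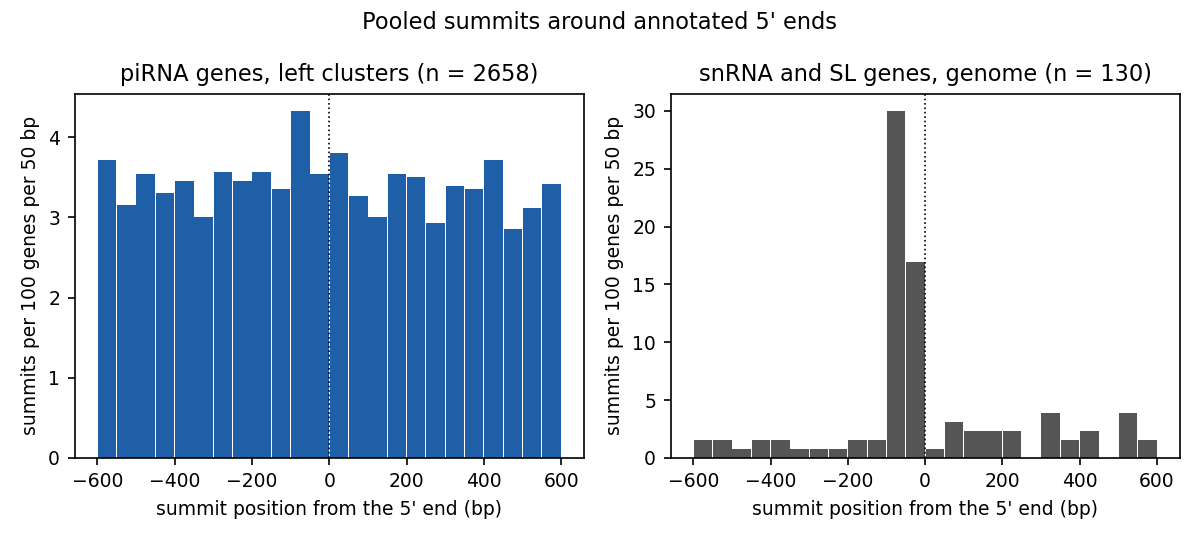
Pooled summits per 100 genes in 50-bp steps around annotated 5′ ends (x axis in bp, upstream negative), for 2658 piRNA genes of the left clusters and 130 snRNA and spliced leader (SL) genes of the genome; the axes differ in scale. The snRNA and spliced leader panel peaks in the step 100 to 50 bp upstream, with 39 summits, and the piRNA panel reaches 4.33 in the same step against a median step of 3.44.

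The number of weak regions went with the number of piRNA genes along the interval. Across its 18 bins of 100000 bp, with 44 to 220 piRNA genes each, members below the threshold ran from 27 to 68 per bin. Pearson's r between both counts was 0.81 and Spearman's rho 0.83, and r was 0.78 to 0.85 when any 1 bin was left out. For thresholded members r was -0.34. The bins share the same libraries and depth, so these are descriptions. Using each replicate's own list with its strongest regions set aside, r was 0.63 in replicate 1 and 0.81 in replicate 2.

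Base composition and coding share moved along with both counts. Across the 18 bins, the count below the threshold had r of 0.28 with the A+T share, -0.56 with the coding share and 0.66 with the share of unique 36-base words. With the A+T share r was 0.51 in bins of 50000 bp, 0.57 in bins of 20000 bp and 0.74 over all 174 bins of the chromosome, where r with piRNA genes was 0.75, 0.74 and 0.94. The bin from 5200001 to 5300000 had the fewest members (29) and 88 piRNA genes, and 63.7% of its positions started a unique word. The bin from 5500001 to 5600000 had the most members (72) with 211 piRNA genes. Over all of chromosome IV, bins with no piRNA gene had 24.0 ± 7.94 regions below the threshold (SD over 34 bins), and bins with 150 to 199 had 55.3 ± 7.43 (9 bins). Thresholded peaks in those bins averaged 2.62 and 2.33.

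**Figure D3:**
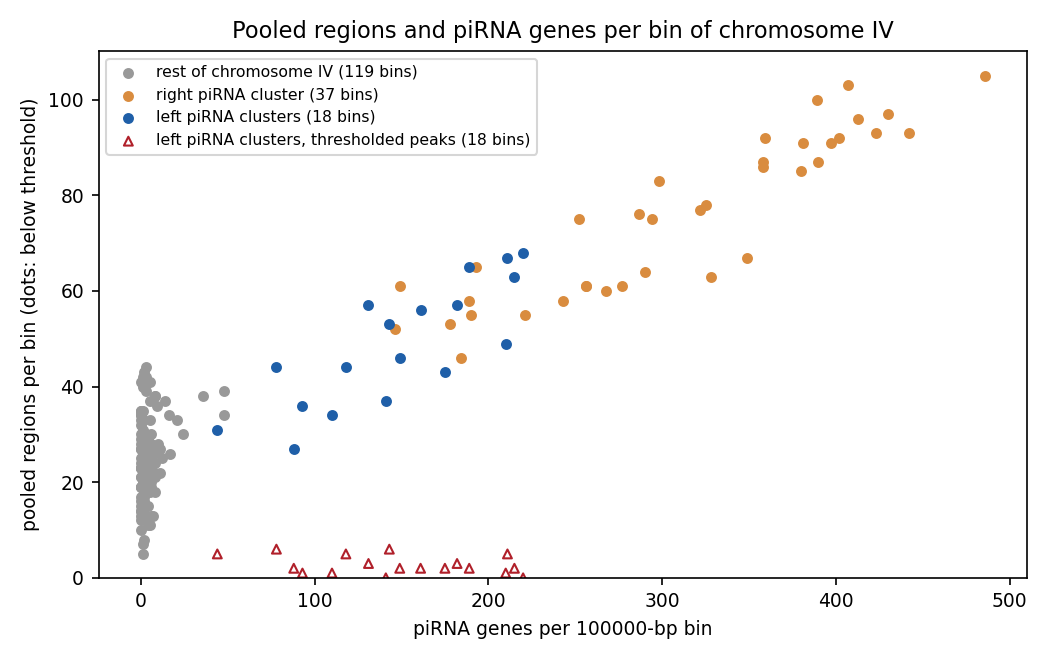
Pooled regions per 100000-bp bin of chromosome IV (y axis) against piRNA genes per bin (x axis); dots are regions below the threshold in the left clusters (blue, 18 bins), the right-hand cluster (orange) and the rest (grey), and red triangles are thresholded peaks of the left clusters. The blue dots run from 27 to 68 and are higher in bins with more piRNA genes, and the triangles lie between 0 and 6.

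Weak regions were also denser in the interval among sequence of like composition, apart from the most A+T-rich class. In 300-bp tiles with no coding sequence, regions below the threshold lay at 64.2 per 100000 bp in the interval and 34.5 on the rest of the chromosome. At an A+T share of 55 to 60% the densities were 56.6 and 34.5, and at 60 to 65% they were 56.6 and 32.1. At 65 to 70% they were 60.5 and 32.7, and at 70 to 75% they were 70.9 and 35.8. At 75 to 80% they were 71.3 and 45.9. In the class of 80 to 85%, which held 10 tiles of the interval, they were 33.3 and 31.2. In tiles with at least 95% unique words they were 73.4 and 42.7. Whether chromatin openness or the control signal differs there was not tested, since neither was analysed.

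Within the interval, weak regions were densest nearest the piRNA genes. In noncoding tiles the density was 78.7 per 100000 bp where the tile centre lay within 100 bp of a piRNA 5′ end, and 73.3 at 100 to 250 bp. It was 67.2 at 250 to 500 bp, 53.8 at 500 to 1000 bp and 40.6 at 1000 to 2000 bp. Beyond 2000 bp it was 32.7, near the 34.5 of noncoding tiles on the rest of the chromosome. The median A+T share of the tiles fell over the same steps, from 71.7% to 66.0%, and its part in the decline was not tested.

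**Figure D4:**
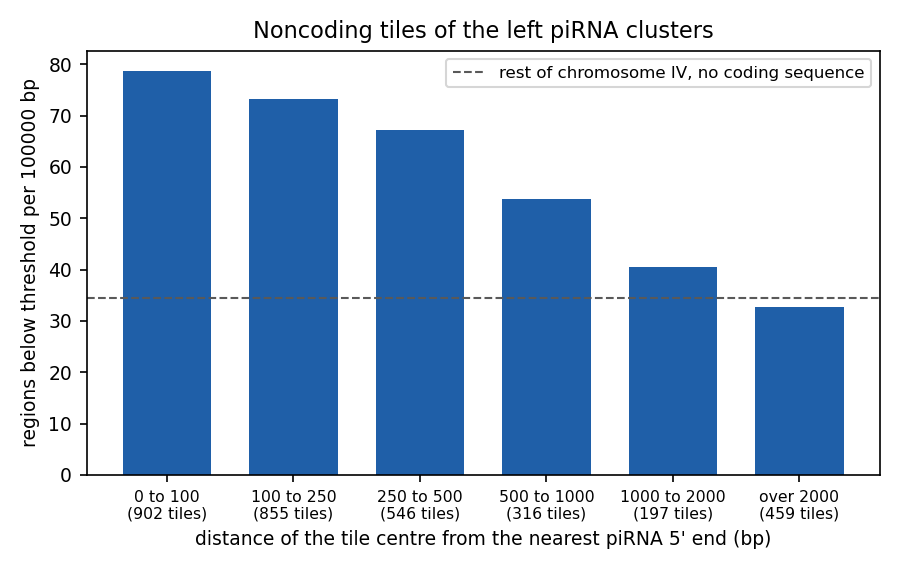
Regions below the threshold per 100000 bp (bars) in noncoding 300-bp tiles of the left piRNA clusters, by distance in bp from the tile centre to the nearest piRNA 5′ end, with the number of tiles in each step. The dashed line is the density in noncoding tiles on the rest of chromosome IV, 34.5; the bars fall from 78.7 to 32.7.

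Most members lay between genes or in introns. Of the members 451 (48.8%) lay between genes and 335 (36.2%) in introns of protein-coding genes, against 37.4% and 32.0% of positions. Coding exons held 72 (7.78%) against 24.5% of positions. Of the 48 thresholded members, 31 lay between genes and 0 in coding exons. Of the piRNA 5′ ends, 50.4% lay in introns. The genes named next were chosen after their values were seen. *fkh-7*, which encodes a forkhead protein, held 27 members, 3 of them thresholded, and 78 piRNA genes. *unc-5*, the netrin receptor gene, held 26 members and 97 piRNA genes, and *kcc-2*, a potassium-chloride cotransporter gene, 25 and 98, with 0 thresholded in either. *skn-1*, which encodes a stress-response transcription factor, held 7 members and 0 piRNA genes, so members also occurred in genes without piRNA genes. Conversely *unc-44*, which encodes an ankyrin, is 29301 bp long and held 20 piRNA genes and 0 members.

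The core word was more frequent at member summits than in the interval at large. CTGTTTCA, searched on both strands in the 300 bp at the summit, was present at 244 members (26.4%, interval 23.6 to 29.3). It was present in 18.2% of the 300-bp tiles of the interval, 2.97% of those of the genome and 6.31% of all nuclear regions. It was found at 0 of 48 thresholded members, against 1.28% of all thresholded nuclear regions. The 244 members with the word were all among the 877 below the threshold. In the right-hand cluster 40.8% of regions had it, and on the rest of the chromosome 2.80%. The strongest member of the printed core-word genes, at *21ur-12780*, ranked 5322 (signal 16.9; 20604 and 10948 in the replicates), and that at *21ur-9403* ranked 5533 (signal 16.4; 17274 and 6421). The one at *21ur-15608* was not overlapped in replicate 1 and ranked 2778 in replicate 2. The member at *21ur-3660* ranked 6013 (signal 15.5; 9581 and 14073). All 4 ranked far below the printed snRNA and spliced leader genes in every list that held them. The tiles include coding sequence, which holds few members, and the part of this in the difference was not tested.

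The fitted 22-bp element was matched at a larger share of thresholded than of weak members. A match was a score that 1% of genome tiles of the same length reached. Within 200 bp at the summit the element matched at 14 members (1.51%) against 3.41% of all nuclear regions. In the right-hand cluster the share was 4.69%, and on the rest of chromosome IV 2.35%. The element matched at 7 of 48 thresholded members (14.6%, interval 6.07 to 27.8). Of the 877 below the threshold 7 had a match (0.798%), no more than the 1% of tiles. The element was fitted only on snRNA and spliced leader genes with a thresholded peak, so this contrast is not independent of the fit. Genes of these classes were among the matches on both sides, such as *Y9C9A.111*, *sls-2.13* and *sls-2.17* above the threshold and *T08B6.62* and *Y17G9A.85* below it. Of all thresholded nuclear regions 9.45% had a match, which lies within the interval for thresholded members. Those regions include the peaks of the genes the element was fitted on. Among members assigned to piRNA genes 4 of 570 (0.702%) had a match, and 5 of the 2658 piRNA genes (0.188%) had one 100 to 20 bp upstream. Both shares were under the 1% of tiles. Of the 46 genes the element was fitted on, 44 had a match there. The fit itself favours this, so it is not an independent comparison. The 5 strongest members all had a match, as did *sqd-1* at rank 369. A match is a run of letters and does not show binding.

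Agreement between replicates was read mainly from the members below the threshold, since the thresholded list was itself made from both replicates. Of the 877 weak members 279 (31.8%) were overlapped in both replicate lists. The like share over all weak nuclear regions was not computed. Of all members 326 (35.2%) were overlapped in both, against 39.9% of all nuclear regions. Both of these shares include thresholded regions, which were a smaller part of the members. In 1 of the lists alone 483 (52.2%) were overlapped, against 49.4% of all nuclear regions. In neither list were 116 (12.5%) overlapped, against 10.7%. Of the 48 thresholded members 47 were in both lists, the exception being *sls-2.19*, as were 99.1% of all thresholded nuclear regions, and the making of that list favours this. Their median rank was 1065 in replicate 1 and 1032 in replicate 2, against 13484 and 12962 for weak members that were found. Spearman's rho between the replicate ranks was 0.71 over 47 thresholded members and 0.40 over 279 weak ones. Over all 326 members in both lists it was 0.61, against 0.60 over all such nuclear regions. Adjoining members can meet the same replicate region, so these points are not independent.

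**Figure D5:**
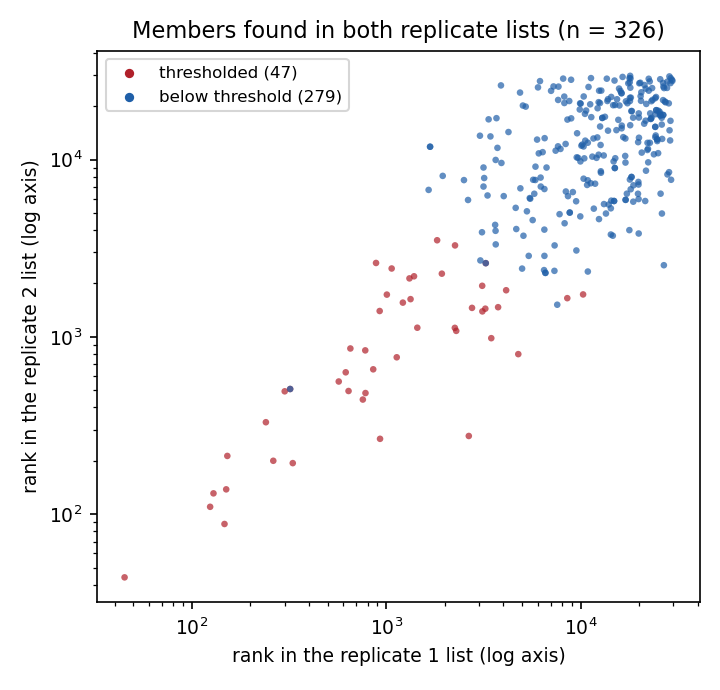
Rank in the replicate 1 list (x axis, log) against rank in the replicate 2 list (y axis, log) for the 326 members overlapped in both lists; each dot is a member, red in the thresholded list (47) and blue below it (279). The strongest member sits at 45 and 44, and the blue dots spread widely toward high ranks.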

How the data were processed

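The authors deposited lists of regions on ce11: a thresholded list of 2672 peaks, and lists of 30000 regions, peaks and background together, 1 for both replicates pooled and 1 per replicate. Per the file headers, a control alignment was an input, and it was not analysed here. The aligner, peak caller and threshold were not given in the sources used here. Without read counts, depth is unknown. The deposited signal value is an arbitrary unit on each list's own scale and was used only to rank and describe regions within a list. The −log10 q-value was used as the authors deposited it. Lists on ce10 were not used.

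Regions were placed by summit on the RefSeq annotation of WBcel235, which ce11 names. Each went to the first class with a 5′ end within 500 bp. Small RNA classes came before protein-coding genes, those before piRNA genes, and unclassified noncoding RNA genes and pseudogenes came last. A member was matched to a replicate region by any overlap. Bins were 100000 bp and density tiles 300 bp. The element of 22 bp was fitted by expectation maximisation. Intervals are 95% Clopper-Pearson over regions or genes and cover counting error only. No significance test was run, since there was 1 group. Python 3.11.15, numpy 2.4.6, pandas 2.3.3 and scipy 1.17.1 were used, and the helper functions were tested on simulated data.

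Genes named were those at the 20 strongest members, at up to 3 of the strongest members of each class, at the 10 strongest members assigned to piRNA genes, at the ends of the interval, of SNAPc and 21U-RNA factors in the interval, and of classes with 5 or fewer members. The members and lists were chosen with earlier results of these data known. Alternatives were other windows, overlap rules, bins, thresholds and each replicate alone.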

Additional observations from a re-analysis of the deposited data

How the results depend on the processing

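No paired analysis was possible because there was 1 group. With either replicate's list alone, the number of members was 769 to 804. Those among the 2672 strongest regions of that list, taken by rank in place of a thresholded list, made up 5.46% to 6.72%. Members near piRNA genes were 71.8% to 73.4%, and piRNA genes with a member 47.1% to 50.8%. Summits 0 to 100 bp upstream of a piRNA 5′ end were 15.1% to 16.0% (17.5% in the pooled list). The core word was at 22.9% to 26.2%, and the median rank was 15349 to 15473. The ratio of weak regions to the rest of the chromosome was then 1.58 to 1.62, and r 0.63 to 0.81. Leaving out the bin with under 50 piRNA genes moved no value beyond its interval. With windows of 100, 250 and 1000 bp, 30.9%, 57.2% and 83.1% of members and 15.0%, 34.8% and 80.6% of piRNA genes qualified. Among thresholded members alone, 25.0% were near piRNA genes, 0.790% of piRNA genes had one, 2.08% were 0 to 100 bp upstream, 0% had the core word and 97.9% were in both replicates. The stronger part of the thresholded list, split at its middle, held 2.81% of members. Summits 30 to 80 bp upstream made up 9.08%, and those 0 to 100 bp downstream 16.0%. With mutual overlap by the larger part of both regions 23.0% were in both replicates, and with summits within 100 bp 19.9%. With 1 mismatch the core word was at 67.4%. The following were chosen after seeing the data. Outside exons 77.7% of members were near piRNA genes. The ratio was 1.72 in unique noncoding tiles and 1.86 in all noncoding tiles. In noncoding tiles by A+T class, in steps of 5% from 55 to 85%, it was 1.64, 1.76, 1.85, 1.98, 1.55 and 1.07, the last from 10 tiles of the interval. With bins of 50000 and 20000 bp r was 0.75 and 0.74, and over all bins of the chromosome 0.94. Window and subset changes alter what is counted, and the cause of the other shifts was not tested. Unknown depth limits what can be said of regions not found.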
